A study of Caenorhabditis elegans with 2 samples.

Results

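The lineage-defective genes of Caenorhabditis elegans, symbol lin- and a number, were named in genetic screens for animals whose cells divide or differentiate in the wrong pattern. The 35 genes described here were chosen by symbol: they are the protein-coding lin genes of the Ensembl annotation, out of 19973 protein-coding genes in all, without 12 lin genes, most of them known for developmental timing or for Wnt and Hox functions. At each gene the strongest MAB-9 summit within 2000 bp of an annotated transcript start was selected on its signal, so the signals that follow are a description and no test was made on them. The data are peak lists from chromatin immunoprecipitation and sequencing of MAB-9, a T-box transcription factor of the hindgut, the male tail and motor neurons. The material was whole animals at the L1 stage, of strain RW12257. In its allele st12257, CRISPR insertion had put the tags TY1, EGFP and 3xFLAG into mab-9 itself on chromosome II, and an antibody against GFP was used. The larvae had been synchronised by starvation after bleaching and were 6 hours old. There were 2 biological replicates in 1 group, from separate biosamples of the same strain. No larvae without the tag and no other stage were analysed here, and the sequencing depth is unknown because no read counts were used.

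Many lin genes act on the vulva, where an epidermal growth factor (EGF) signal runs through a receptor tyrosine kinase, Ras and MAP kinase, and where a Notch signal passes between neighbouring cells. The synthetic multivulva (synMuv) genes hold vulval fates back, and a set of them encodes the DREAM complex, in which the worm retinoblastoma-like protein LIN-35 sits with an E2F factor and the DNA-binding protein LIN-54 on promoters and represses cell cycle and germline genes. Other lin genes encode fate-determining transcription factors, chromatin proteins and parts of the division and ubiquitin machinery. A gene is called bound here where a summit of the authors' conservative list, in which both replicates are combined, lay within 2000 bp of a transcript start of the gene. The signal of a peak is the authors' value from their peak caller, on a scale that the sources used here do not state. In whole larvae, binding in few cells and weak binding in many cells cannot be told apart.

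The genome under 5 of the 10 lin summits described here is printed first. Only windows with at least 1 of the patterns marked in capitals are printed, so their holding a pattern is no result. Each is the plus strand of the ce11 build from 100 bp before to 100 bp after the summit, read from the RefSeq assembly; at lin-54 the bases inside the untranslated region of the neighbour rpl-12 are left out. Capitals mark ACGCAG or its reverse complement, GCGCGAAA, GGTGTG and TGATAA, searched on both strands. The window of lin-7 also holds ACGCAG and is not printed. The windows are chrIV:13240652-13240794 for lin-54, chrIII:8904187-8904387 for lin-9, chrIII:7710189-7710389 for lin-13, chrII:6370260-6370460 for lin-23 and chrX:12404844-12405044 for lin-2.
lin-54: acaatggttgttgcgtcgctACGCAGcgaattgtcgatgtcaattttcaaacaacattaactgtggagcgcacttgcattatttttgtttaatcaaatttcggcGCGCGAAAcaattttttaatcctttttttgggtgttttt
lin-9: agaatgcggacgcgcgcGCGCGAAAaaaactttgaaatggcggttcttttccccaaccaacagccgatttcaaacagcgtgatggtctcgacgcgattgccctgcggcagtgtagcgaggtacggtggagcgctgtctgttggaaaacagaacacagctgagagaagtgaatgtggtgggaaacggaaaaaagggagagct
lin-13: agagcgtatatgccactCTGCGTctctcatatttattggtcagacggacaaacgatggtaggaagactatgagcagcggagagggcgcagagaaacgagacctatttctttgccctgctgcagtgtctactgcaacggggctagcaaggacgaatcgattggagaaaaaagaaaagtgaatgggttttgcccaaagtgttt
lin-23: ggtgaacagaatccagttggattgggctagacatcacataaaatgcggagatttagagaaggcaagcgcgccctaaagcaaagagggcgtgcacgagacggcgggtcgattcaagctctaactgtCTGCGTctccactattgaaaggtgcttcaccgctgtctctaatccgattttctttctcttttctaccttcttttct
lin-2: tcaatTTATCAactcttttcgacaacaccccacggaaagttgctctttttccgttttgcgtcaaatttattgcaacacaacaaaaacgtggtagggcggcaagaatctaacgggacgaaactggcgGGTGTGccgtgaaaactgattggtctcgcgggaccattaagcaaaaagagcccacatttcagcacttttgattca

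None of the 10 bound genes had the T-box site AGGTGTGA or its shorter core AGGTGT at its strongest summit. Over all 1431 conservative summits the shares were 0.210% and 4.96%, and in the windows 1000 bp to either side, which served as flanks, they were 0.467% and 5.43%. GGTGTG, which overlaps both of these patterns in the T-box site, was found only at lin-2, 26 bp from the summit, against 7.62% of all summits and 4.64% of flanks. The E-box CACGTG was at none of the 10, with 7.20% of all summits and 4.24% of flanks holding it. The GAGA repeat GAGAGAGA was found only at lin-59, where overlapping copies began 31 to 41 bp from the summit, against 9.64% of all summits and 2.16% of flanks. TGATAA, the GATA pattern, was found only at lin-2, 95 bp from the summit, against 8.39% of all summits and 17.5% of flanks. A further 2 patterns were added after the windows had been seen, so their counts support nothing. ACGCAG lay at 4 of the 10 (lin-54, lin-13, lin-23 and lin-7), where 22.2% of all summits and 4.39% of flanks hold it. GCGCGAAA, which resembles the site of E2F factors, lay at lin-54 and lin-9, where 3.00% of all summits and 0.647% of flanks hold it. The windows of lin-35, lin-36 and lin-53 held none of the patterns searched. A match is a run of letters in the window, and it does not show that a factor sits there. The GC content of the 10 windows ran from 38.3% to 53.2% with a median of 47.0%, beside a median of 44.8% over all conservative summits.

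Of the 35 lin genes, 10 were bound (28.6%), beside 7.90% of all protein-coding genes. They were lin-54, lin-53, lin-9, lin-35, lin-2, lin-59, lin-36, lin-13, lin-23 and lin-7. Their signals ran from 78.5 to 348.5 with a median of 128.6, beside a median of 113.7 over the 1578 bound genes of the genome. At or above 98.7, the median signal of the conservative list, were 6 of the 10, beside 963 of the 1578 bound genes. Counting only the gene whose start is nearest to a summit, 7 of the 35 lin genes were left (20.0%), beside 4.98% of all genes. That count was 4 in replicate 2's own thresholded list and 6 in replicate 1's, where the share of all genes counted this way is not given here. Each replicate's own list put summits at fewer genes: 9 of the 35 in replicate 1 (25.7%, beside 5.22% of all genes) and 7 of the 35 in replicate 2 (20.0%, beside 5.55%). Of the 10 bound genes, 6 were in both replicates' own lists, beside 51.3% of all bound genes, and lin-23 was in neither. Genes with several annotated starts offer more sequence to be counted in. Only 18 of the 35 lin genes (51.4%) had a single start, beside 73.7% of all genes, and 12.6% of genes with several starts were bound, beside 6.24% of genes with 1. Among the lin genes 6 of the 18 with a single start were bound (33.3%), and 4 of the 17 with several (23.5%).

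**Figure D1:**
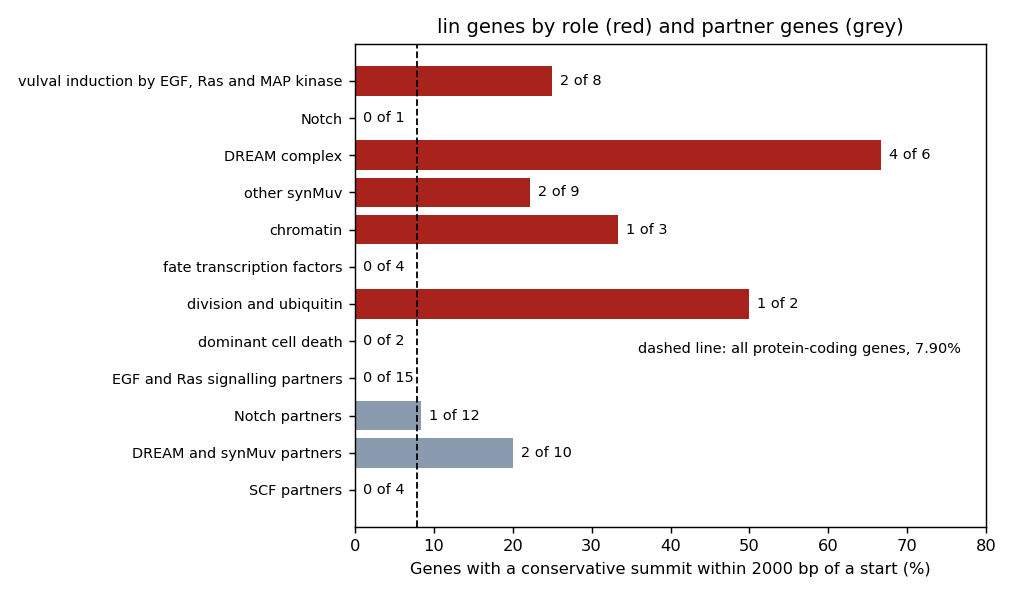
Share of genes with a conservative summit within 2000 bp of a transcript start (horizontal axis, percent), for the lin genes by role in red and for lists of partner genes in grey, with the counts at the bars. The dashed line is the share over all protein-coding genes, 7.90%, and the DREAM complex has the longest bar, with 4 of 6 genes.

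The 3 strongest lin summits lay at DREAM complex genes. Of its 6 lin subunits, 4 were bound, beside 7.90% of all protein-coding genes. The same 4 had summits in each replicate's own list, beside 5.22% of all genes in replicate 1 and 5.55% in replicate 2. Their signals were 348.5 at lin-54, 289.0 at lin-53, 272.0 at lin-9 and 135.3 at lin-35, at ranks 53, 86, 98 and 425 of the 1431 peaks. Of the other bound lin genes only lin-2, at 140.9, lay above lin-35. Counting only the gene whose start is nearest to a summit, 2 of the 6 DREAM genes were left, lin-9 and lin-35, beside 4.98% of all genes.

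The gene lin-54 (WBGene00003037, chromosome IV, 13241044 to 13243401, plus strand) encodes a DNA-binding subunit. Its peak ran from 13240614 to 13240743, and its summit lay 350 bp upstream of the lin-54 start in intergenic sequence. The signal there was 163.1 in replicate 1 and 183.4 in replicate 2. The start nearest to that summit belongs to rpl-12, a large subunit ribosomal protein gene on the other strand, 43 bp away. The stretch printed for lin-54 begins just outside the rpl-12 start, and the peak itself reaches into rpl-12, so which of the genes it belongs to cannot be told apart.

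The gene lin-9 (WBGene00002998, chromosome III, 8900237 to 8904131, minus strand) encodes another core subunit. Its peak, from 8904224 to 8904323, had its summit 156 bp upstream of the start, with a signal of 152.0 in replicate 1 and 129.0 in replicate 2. The next gene, unc-32, which encodes a subunit of the vacuolar proton pump, starts 1328 bp from that summit, so lin-9 is the nearest gene by a wide margin.

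The gene lin-53 (WBGene00003036, chromosome I, 9618196 to 9619760, minus strand) encodes a histone-binding WD-repeat protein of the RbAp46 and RbAp48 family. Its peak ran from 9619952 to 9620080, with the summit 246 bp upstream of lin-53 and 221 bp from the start of nra-2, on the opposite strand. The signal was 163.1 in replicate 1 and 120.7 in replicate 2, and the summits of both replicates lay at the same base. The same summit lay 1899 bp from rba-1, which encodes a close relative of LIN-53.

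The gene lin-35 (WBGene00003020, chromosome I, 5807709 to 5815637, plus strand) encodes the retinoblastoma-like pocket protein. Its peak, from 5807358 to 5807677, had its summit 191 bp upstream of lin-35 and 227 bp from the start of vps-51, a vesicle tethering gene on the opposite strand. The signal was 74.7 in replicate 1 and 69.9 in replicate 2.

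The remaining DREAM subunits were not bound, and their replicates differed. At lin-37 the strongest ranked summit had a signal of 45.8 in replicate 1 and 23.4 in replicate 2. In both replicates that summit lay nearer to another gene, ZK418.5, at 355 and 335 bp. At lin-52 it had 46.2 in replicate 1 and 13.4 in replicate 2, 85 bp apart. Replicate 1 thus placed lin-52 above most genes (percentile 93.7) and replicate 2 placed it low (percentile 16.7). In the partner list of 10 DREAM and synMuv genes outside the lin names, 2 were bound (20.0%, beside 7.90% of all protein-coding genes). One is efl-1, which encodes the E2F factor of the complex, with its summit 156 bp upstream and a signal of 178.8 (93.6 in replicate 1 and 80.5 in replicate 2). The other is rba-1, through the summit shared with lin-53.

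**Figure D2:**
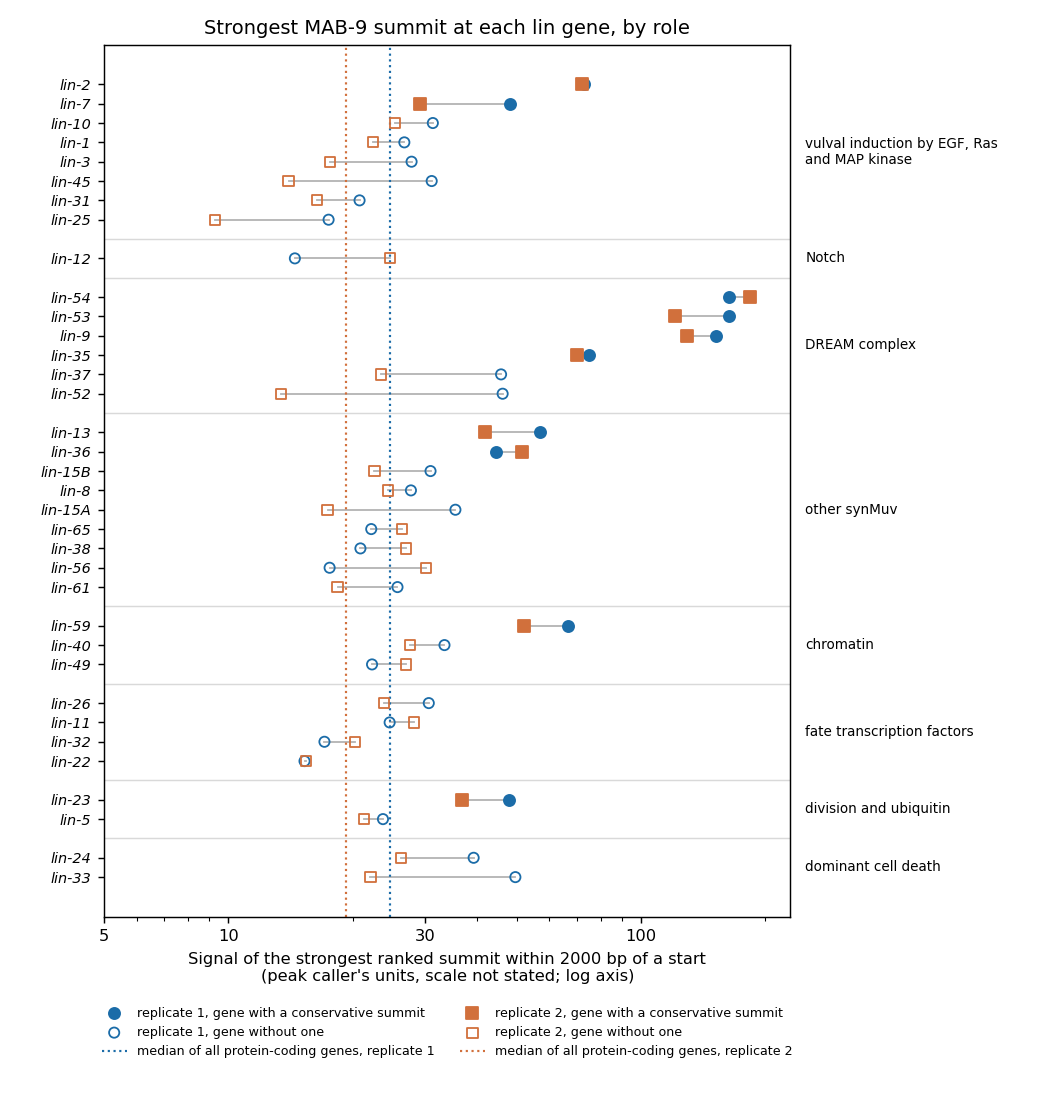
Signal of the strongest ranked summit within 2000 bp of a transcript start (horizontal log axis, the peak caller's units) for all 35 lin genes, grouped by role, with circles for replicate 1 and squares for replicate 2. Filled marks are genes with a conservative summit, and the dotted lines are the medians of all protein-coding genes, 24.7 and 19.3: lin-54, lin-53 and lin-9 lie above 120 in both replicates and every other lin gene below 75.

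Among the other synMuv genes 2 of 9 were bound (22.2%, beside 7.90% of all protein-coding genes), at middling signal. The gene lin-13 (WBGene00003002, chromosome III, 7700338 to 7709491, minus strand) encodes a zinc finger protein. Its peak, from 7710129 to 7710448, had its summit 798 bp upstream and a signal of 97.5 (56.8 in replicate 1 and 41.9 in replicate 2). Replicate 1's own list held it and replicate 2's did not. A further conservative peak with a signal of 18.3, from 7710329 to 7710648, overlapped the first. No separate peak of either replicate's ranked list matched it, the nearest ranked summit in both being that of the first peak.

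The gene lin-36 (WBGene00003021, chromosome III, 8016648 to 8020873, minus strand) encodes a THAP domain protein. Its peak, from 8020958 to 8021277, had its summit 245 bp upstream and a signal of 98.3, with 44.6 in replicate 1 and 51.6 in replicate 2. Only replicate 2's own list held it. The noncoding RNA gene F44B9.11 lies within 200 bp of that summit. No other bound lin gene had an annotated noncoding RNA gene that close to its strongest summit.

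The other 7 synMuv genes, lin-8, lin-15A, lin-15B, lin-38, lin-56, lin-61 and lin-65, had no conservative summit in reach. Over all 9 the strongest ranked signals ran from 17.6 to 56.8 in replicate 1 and from 17.4 to 51.6 in replicate 2. At lin-56, a class A synMuv gene, replicate 1 gave 17.6 and replicate 2 gave 30.1, from summits 1082 bp apart. At lin-15A, another class A gene, replicate 1 gave 35.5 and replicate 2 gave 17.4, from summits 12 bp apart. The replicates thus differed in opposite directions at these genes.

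Of the 8 genes of vulval induction, 2 were bound (25.0%, beside 7.90% of all protein-coding genes). Both encode parts of the PDZ protein complex that places the EGF receptor LET-23 in the basolateral membrane. The gene lin-2 (WBGene00002991, chromosome X, 12399517 to 12414041, minus strand) encodes the CASK-like member. Its peak, from 12404784 to 12405103, lay in an intron of lin-2, 917 bp downstream of an internal transcript start, and had a signal of 140.9. The replicates gave 72.9 and 72.1, and both own lists held the peak. The next gene, F17E5.2, starts 10679 bp from that summit. The call rests on the internal start: with only the annotated gene start, 9 of the 35 genes were bound and lin-2 was not.

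The gene lin-7 (WBGene00002996, chromosome II, 14345844 to 14349406, minus strand) encodes the small PDZ partner. Its peak, from 14349545 to 14349864, reached a signal of 78.5, with the summit 299 bp upstream. The gene elof-1, which encodes a transcription elongation factor, starts 33 bp from the summit on the opposite strand, and Y54G11A.17 starts at the same distance as lin-7. In replicate 1 the peak had a signal of 48.1 and was in the own list. In replicate 2 no ranked peak overlapped it, and the nearest ranked summit there was 608 bp away with a signal of 27.9. The other pooled list of the authors did not hold it either.

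The third partner, lin-10, was not bound, with 31.3 in replicate 1 and 25.3 in replicate 2 from summits 3626 bp apart. The genes of the signal itself were not bound: lin-3 (EGF), lin-45 (the Raf kinase), lin-1 (an ETS factor), lin-31 (a winged helix factor) and lin-25. Of these, lin-25 had 17.5 in replicate 1 and 9.3 in replicate 2, percentiles 15.0 and 6.6, the lowest mean percentile of the 35. At lin-31 the signals were 20.8 and 16.4, percentiles 29.3 and 31.8. A list of 15 EGF and Ras partners outside the lin names includes let-23, let-60 and mpk-1. Of these 15, 0 were bound in the conservative list and 0 in each replicate's own list. The shares over all protein-coding genes were 7.90%, 5.22% in replicate 1 and 5.55% in replicate 2, so 0 of 15 says little.

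The Notch receptor gene lin-12 was not bound. Its strongest ranked summit had a signal of 14.5 in replicate 1 (percentile 7.2), 758 bp downstream of the start in an intron, and 24.6 in replicate 2 (percentile 75.8), 1072 bp upstream. The replicates thus disagreed on both the place and the level. Of 12 Notch partners 1 was bound: sup-17, which encodes the ADAM protease of the pathway, with its summit 597 bp upstream and a signal of 97.4 (63.6 and 36.2 in the replicates).

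Of the 3 chromatin genes, 1 was bound, beside 7.90% of all protein-coding genes, and a count among so few genes says little. The gene lin-59 (WBGene00003040, chromosome I, 3713449 to 3721157, minus strand) encodes an Ash1-like histone methyltransferase. Its peak, from 3721542 to 3721861, had its summit 545 bp upstream with a signal of 121.8 (66.7 in replicate 1 and 52.1 in replicate 2), and both own lists held it. The next gene start lay 5325 bp from that summit. The gene lin-40, which encodes an MTA-like subunit of the NuRD complex, had 33.4 in replicate 1 and 27.5 in replicate 2, both in exons of lin-40 and 699 bp apart. At lin-49, which encodes a bromodomain protein, the signals were 22.3 and 26.9.

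The gene lin-23 (WBGene00003009, chromosome II, 6371303 to 6374776, plus strand) encodes the F-box protein of an SCF ubiquitin ligase that limits cell division. Its peak, from 6370200 to 6370519, had its summit 943 bp upstream with a signal of 81.8. The signal was 47.8 in replicate 1 and 36.9 in replicate 2, within 15 bp of the pooled summit in both. Neither own list held it, with rates of 0.0438 and 0.0419. The spindle gene lin-5, in the same role list, was not bound (23.7 and 21.3). Of the 4 SCF partners, cul-1, skr-1, skr-2 and rbx-1, 0 were bound. The share over all protein-coding genes was 7.90%, so 0 of 4 says little.

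None of the 4 fate-determining transcription factor genes was bound, beside 7.90% of all protein-coding genes, so a lack among so few genes says little. Their strongest ranked signals ran from 15.3 to 30.6 in replicate 1 and from 15.4 to 28.2 in replicate 2. The bHLH gene lin-22 had 15.3 and 15.4, percentiles 8.6 and 26.2, and the proneural gene lin-32 had 17.1 and 20.3, percentiles 13.5 and 56.3. The LIM homeobox gene lin-11 had 24.6 and 28.2 from summits 76 bp apart, and the epithelial gene lin-26 had 30.6 and 23.8 from summits 1574 bp apart.

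Dominant mutations of lin-24 and lin-33 make vulval precursor cells die or fail to divide, and neither gene had a conservative summit. At lin-24 the replicates gave 39.3 and 26.2, 63 bp apart in an intron, percentiles 90.3 and 80.3. At lin-33 they gave 49.6 and 22.1, 45 bp apart and 1159 and 1204 bp upstream. The lin-33 peak was in the other pooled list, on chromosome IV at 5929315 to 5929634 (signal 77.9), and in replicate 1's own list (signal 49.6).

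**Figure D3:**
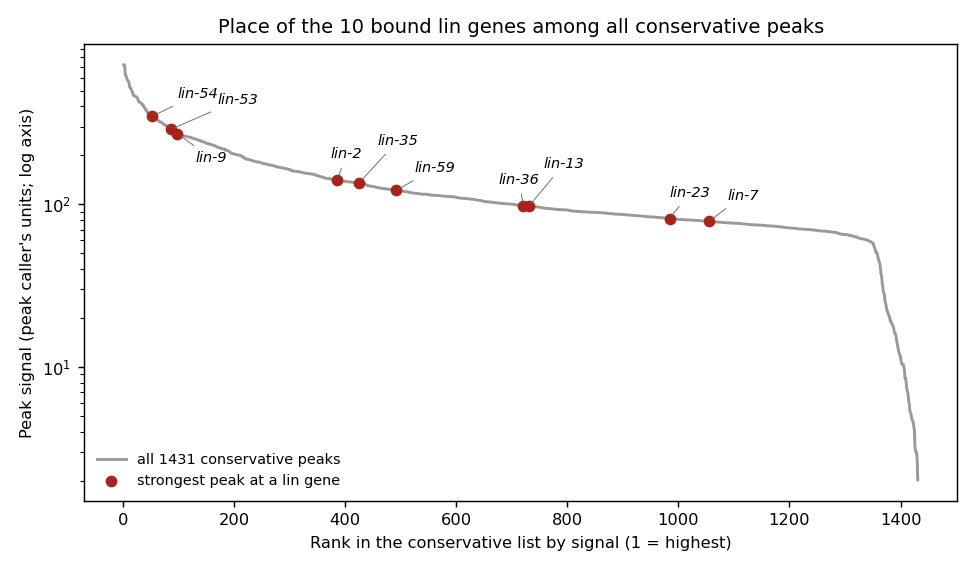
Signal (vertical log axis, the peak caller's units) against rank for all 1431 conservative peaks in grey, with the strongest peak at each of the 10 bound lin genes as red points. The DREAM genes lin-54, lin-53 and lin-9 stand within the first 98 peaks, and the other 7 lie between ranks 386 and 1055.

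The bound genes carried their summits upstream and within 1000 bp of a start. All 10 were within 1000 bp, where 1103 of the 1578 bound genes of the genome (69.9%) had theirs. The median distance was 324.5 bp, beside 462 bp over all bound genes. At 9 of the 10 the summit was upstream of the start, beside 80.4% of all bound genes, and lin-2 is the exception. At 4 of the 10, lin-54, lin-53, lin-35 and lin-7, another gene also starts within 500 bp of the summit. Over all conservative summits, with or without a gene start in reach, 13.3% had a second gene that close. The share over all bound genes, which would be the like measure, is not given here. The bound gene with the farthest strongest summit was lin-23 at 943 bp, and the nearest summits outside the limit were at 4607 bp for lin-15A, 5319 bp for lin-10 and 5553 bp for lin-52. The irreproducible discovery rate (IDR) says how poorly a peak's rank repeats between lists. It was at most 0.00999 for peaks the authors kept in the conservative list. In the pooled ranked list the members nearest to that limit on the inside were lin-23 at 0.00269 and lin-7 at 0.00284. Nearest on the outside were lin-24 at 0.0151, lin-37 at 0.0234, lin-40 at 0.0243 and lin-33 at 0.0346. The other pooled list kept lin-33 all the same, so that list was not cut at this limit on these rates.

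**Figure D4:**
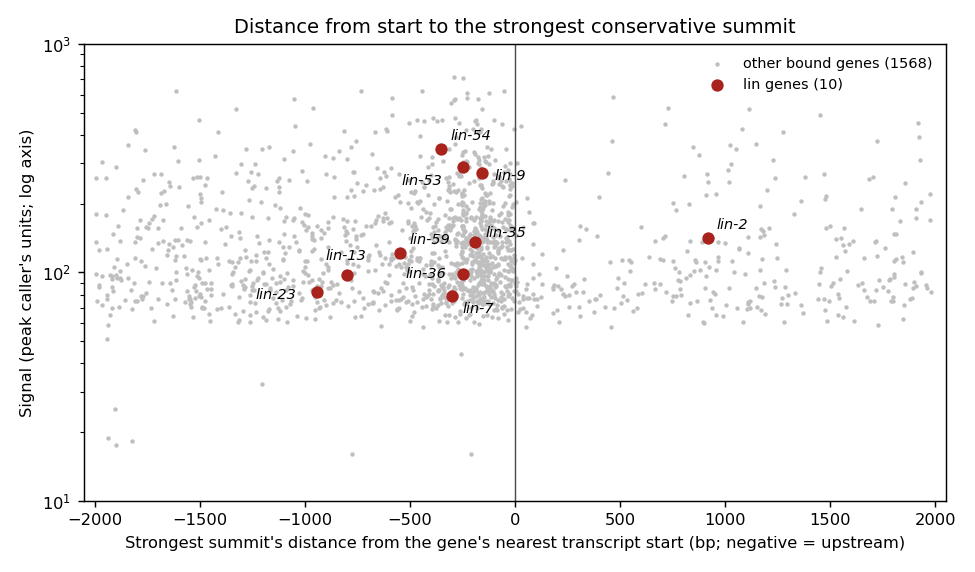
Signal of the strongest conservative summit (vertical log axis, the peak caller's units) against its distance in bp from the gene's nearest transcript start, negative upstream, for the 10 bound lin genes in red and the other bound genes in grey. The red points lie upstream within 943 bp, except lin-2 at 917 bp downstream.

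Over all 35 genes the strongest ranked signal ran from 14.5 to 163.1 with a median of 31.1 in replicate 1, beside a median of 24.7 over all protein-coding genes. In replicate 2 it ran from 9.3 to 183.4 with a median of 25.3, beside 19.3. Above the median gene in both replicates were 19 of the 35 (54.3%), beside 31.7% of all genes. Without the 10 bound genes the count was 9 of 25, beside 25.9% of the genes with no conservative summit. Across the 35 genes the signals of the replicates had a Spearman rho of 0.58, beside 0.45 across all 19973 genes. Across the 25 lin genes without a conservative summit it was -0.05. Leaving out the 10 bound genes takes out most of the highest signals, and the conservative list keeps peaks that repeat between the replicates. What lowers the value was not tested. The matching value over all genes without a conservative summit is not given here. The genes in these comparisons share their libraries and the control file, and those that share a summit are counted more than once.

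The replicates placed the strongest summit within 100 bp of each other at 16 of the 35 genes (45.7%), beside 24.7% of all genes. At the bound genes this was 9 of 10, the exception being lin-7, beside 89.0% of all bound genes. The conservative list keeps peaks that repeat, so the rule bears on this count. At the unbound genes it was 7 of 25, beside 19.2% of all unbound genes: lin-8, lin-11, lin-15A, lin-24, lin-33, lin-37 and lin-52. At the median unbound lin gene the replicates' summits were 930 bp apart, beside 947 bp over all unbound genes. For most of these lin genes the 2 values thus describe different places.

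**Figure D5:**
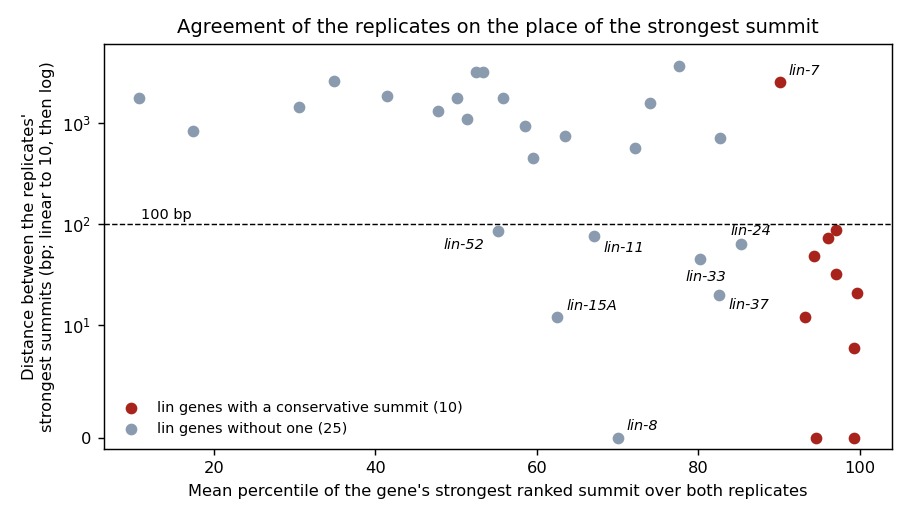
Distance in bp between the strongest summits of the 2 replicates (vertical axis, linear to 10 and logarithmic above) against the gene's mean percentile among all protein-coding genes over both replicates, for the 10 bound lin genes in red and the 25 others in grey. Red points lie below the dashed line at 100 bp except lin-7 at 2510 bp, and 7 grey points lie below it.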

How the data were processed

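Peak lists of 2 replicates and of both combined were used. Coordinates follow ce11, per the labels. The text files deposited with the samples say that the authors derived each list from alignments and a control file. Aligner, peak caller and versions: not given in the sources used here. Column values named signal are those of the authors' peak caller and are never negative. The authors' ranked lists hold the −log10 of the IDR. No read counts were used, so no interval that needs depth is given. The conservative list holds 1431 peaks, the other pooled list 1492, and the replicates' own thresholded lists 824 and 869. The replicates' ranked lists hold 116030 and 90836 peaks. In the pooled ranked list, 8 columns of unnamed inputs were not used.

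Starts are those of protein-coding transcripts in Ensembl release 115, whose build matches. Summits were assigned to every gene with a start within 2000 bp. Peaks were the same when they overlapped by 50% of the shorter. Motif windows were 201 bp, and flank centres lay 1000 bp from a summit and over 300 bp from any conservative summit. With 1 group there is no contrast, and no test was run. Members and lists were chosen with earlier results of these data known. Named genes are all bound members, the 5 highest and 5 lowest unbound by mean percentile, and bound partner genes; others named were chosen after their values were seen. Alternatives were another peak list, each replicate's own list, a stricter signal, other windows, starts and ranked peaks. The assignment and motif steps were tested on simulated data. Python 3.11.15, NumPy 2.4.6, pandas 2.3.3 and matplotlib 3.10.9 were used.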

Additional observations from a re-analysis of the deposited data

How the results depend on the processing

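The count of 10 bound lin genes was within 1.5 times under 7 of the 9 alternatives, from 7 to 10. It was 6 with peaks at or above the median signal (beside 4.82% of all genes), which leaves out lin-7, lin-13, lin-23 and lin-36, and 6 within 500 bp of a start (beside 4.30%), which leaves out lin-2, lin-13, lin-23 and lin-59. The other pooled list also gave 10, with lin-33 in place of lin-7. Without peaks nearest to a ribosomal protein gene, an alternative chosen after seeing the data, it was 9, without lin-54 (beside 7.69% of all genes). The count of nearest genes was 4 with peaks at or above the median signal and from 4 to 6 in the replicates' own lists. The shares of all genes under these settings are not given here. The median signal of 128.6 was 206.5 with peaks at or above the median, 203.7 within 500 bp, and 72.1 to 72.9 in the replicates' own lists, whose signals come from single libraries. The median distance was 447.5 bp in the other pooled list and 245.5 bp within 500 bp. Within 500 bp, 0 bound genes had GAGAGAGA. The median ranked signal in replicate 1 was 26.7 within 1000 bp. With ranked peaks of a rate of at most 0.05 it was 0 in both replicates, as was the median over all genes, and 9 of the 35 (25.7%) had such a peak in both, beside 5.17% of all genes. Of 44 values recomputed, 29 stayed within 1.5 times (counts) or the spread between replicates (other values). The unknown depth limits what an absent summit shows. No paired analysis was possible because there is 1 group.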

Other observations

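The peaks at lin-9, lin-53 and lin-54 were narrow, 100, 129 and 130 bp wide. The strongest peaks at the other 7 bound lin genes were each 320 bp wide, as were 90.6% of all conservative peaks. Of the 12 lin genes that the choice by symbol left out, 5 (41.7%) had a conservative summit within 2000 bp of a start. The share was 28.6% of the 35 genes described here and 7.90% of all protein-coding genes.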
